A study of Rattus norvegicus with 3 samples.

Results

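Genes of the extracellular matrix and of the stromal cells that lie between kidney tubules were described in the medullary thick ascending limb (mTAL) of the rat. The group was a fixed list of 38 genes, each represented by the probe sets that the platform annotation assigns to that gene alone, with the brightest probe set by mean log2 signal standing for the gene. Of the 38 genes 37 were measured, out of 14217 genes on the array in all, and Col4a3 is not analysed here. The series holds 1 group of 3 arrays, replicates 1 to 3, and no second tissue or treatment. The mTAL came from the outer medulla of male Sprague-Dawley rats aged 7 to 8 weeks that had been injected 30 min before death with 1 mg of furosemide, a loop diuretic that acts on this segment, and with heparin at 250 u. The kidneys were perfused with a solution of 1 mg/ml collagenase and 0.5 mg/ml hyaluronidase, enzymes that cut collagen protein and the matrix sugar hyaluronan, and the excised tissue was kept in collagenase for 60 min before the tubules were banded in 33.3% Percoll. The labels do not say whether the 3 samples came from different rats or from pools, and the p-values therefore cover the spread among 3 samples that may be technical replicates.

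Kidney tubules rest on a basement membrane, a thin sheet in which networks of collagen IV and of laminin are tied together by nidogen and heparan sulphate proteoglycans. Tubule cells make much of this sheet themselves. The space between tubules holds fibroblasts, which make fibrillar collagens and small proteoglycans such as decorin, and mural cells (pericytes and smooth muscle cells), which wrap the vasa recta, the straight vessels of the medulla. Matrix metalloproteinases cut these proteins, and the TIMP proteins inhibit the metalloproteinases.

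Each value is the linear signal of a probe set, in arbitrary units. A gene was called detected when its log2 signal lay above a cutoff set on each array by itself, the 95th percentile of 106 measured genes of other tissues, at signals of 303, 269 and 324 on replicates 1, 2 and 3. The test was limma's, one-sided, with Benjamini-Hochberg adjustment over all genes. All 14 measured markers of the thick ascending limb (TAL) were detected. For Actb, the 3' control probe set exceeded the 5' one, a gap that widens as RNA degrades, and the log2 ratio was 1.48, 1.18 and 1.95 on replicates 1, 2 and 3. For Gapdh this ratio was smaller, at 0.51, 0.43 and 0.60. Every pattern across arrays given below rests on 1 sample per array and has no replicate test.

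Transcripts of 20 of the 37 matrix and stromal genes were detected. That share, 54.1%, was near the 57.4% found over the whole array. By role, the detected genes were 9 of 9 basement membrane genes, 5 of 7 matrix enzymes and inhibitors, 4 of 9 proteoglycan, elastic fibre and adhesive protein genes, 2 of 6 fibroblast and mural cell genes and 0 of 6 fibrillar and filament collagens. Of those 6 collagens, 0 had an unadjusted p under 0.05 in limma. The median over the list was 1.45 log2 units above the cutoff, beside 1.16 over all genes. Signal was above the cutoff on all 3 arrays for 20 of the 37 genes (59.2% of all genes) and on no array for 4, namely Col6a2, Lum, Postn and Pdgfra (33% of all genes). The count depends on where the cutoff lies. With the 90th percentile in place of the 95th, 23 of the 37 were called, beside 63.7% of all genes, and with a stricter percentile, between the 95th and the highest, 17 were, beside 49.1%. With the muscle gene Myh1 added to the genes of other tissues 20 were called, beside 55.3%, and with the brightest reading of the unspiked TrpnX control as the cutoff 35, beside 78.3%. Lum and Postn were the only list genes not called with the TrpnX cutoff, so the counts by role depend on the cutoff as well. Without replicate 1 the list stood above the array as a whole, with 26 of the 37 called beside 56.4% of all genes. Without replicate 2 it was 19 beside 54.8%, and without replicate 3 it was 17 beside 55.5%.

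**Figure D1:**
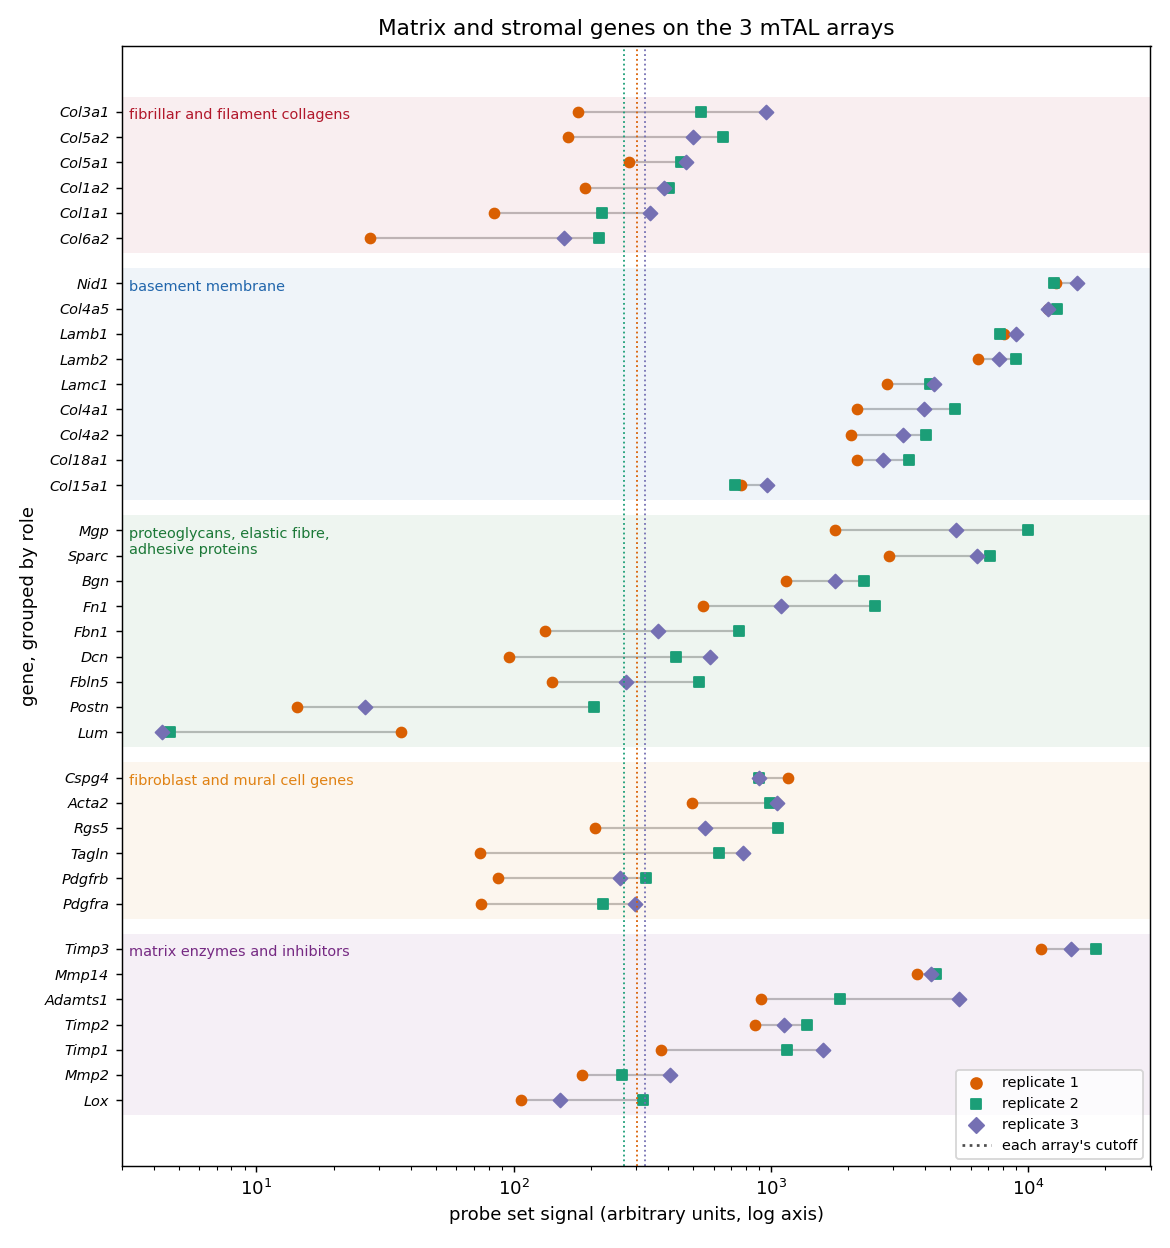
Signal of each of the 37 measured genes (vertical axis, grouped by role) on a log axis of probe set signal in arbitrary units, with 1 point per array and grey lines joining the points of a gene; dotted vertical lines are the cutoffs of the 3 arrays (303, 269 and 324). All 9 basement membrane genes lie to the right of the cutoffs on each array, while replicate 1 lies to the left of its cutoff for all 6 fibrillar and filament collagens.

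Replicate 1 was the low array for most of the list. The signal was lowest on replicate 1 for 32 of the 37 genes, beside 33.7% of all genes, and at least 2-fold lower there than on each other array for 17 of the 37, beside 6.56% of all genes. Many of those signals on replicate 1 lay below the cutoff, where small signals vary widely. Of the 20 list genes above the cutoff on all 3 arrays, a set that leaves out those too low to measure on replicate 1, the signal was lowest there for 16, beside 30% of the 8414 genes of that kind. At least 2-fold lower there than on each other array were 6 of the 20, beside 1.18%, namely Fn1, Sparc, Mgp, Acta2, Timp1 and Adamts1. Of the 18 list genes with more than 1 probe set, 9 had every probe set lowest on replicate 1, beside 9.5% of the 4525 genes with more than 1. Of the 37 genes 5 were not lowest on replicate 1. Col15a1, Lamb1 and Nid1 were lowest on replicate 2, and Lum and Cspg4 on replicate 3. In bulk tissue, fewer cells of a type and less RNA per cell cannot be told apart.

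All 9 measured basement membrane genes were above the cutoff on every array. Collagen IV is built from chains made by neighbouring genes that are read in opposite directions, so the sequences before their starts are shown first, from the RefSeq promoter table of the rat assembly GRCr8. Between the first bases of Col4a1 and Col4a2 lie 76 bases, at chr16:84885521-84885596, printed on the plus strand, which is the strand of Col4a1. For Col4a5 (plus strand, chrX:109907239-109907358) and its neighbour Col4a6 (minus strand, chrX:109905945-109906064), whose starts are 1414 bases apart, the 120 bases before each start are printed on the gene's own strand. Capitals mark the GC box GGGCGG on either strand. The letters CCAAT and TATAAA were also searched on both strands and had 0 matches in these 3 stretches.
Col4a1-Col4a2: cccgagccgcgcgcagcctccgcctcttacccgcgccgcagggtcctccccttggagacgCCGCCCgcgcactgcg
Col4a5: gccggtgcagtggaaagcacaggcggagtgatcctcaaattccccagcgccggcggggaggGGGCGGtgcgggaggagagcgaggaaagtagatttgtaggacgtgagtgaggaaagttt
Col4a6: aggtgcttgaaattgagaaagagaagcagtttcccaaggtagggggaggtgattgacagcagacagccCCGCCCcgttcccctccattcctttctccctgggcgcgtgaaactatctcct
Each stretch held 1 GC box. In windows of 250 bases before the start, the GC box was found in 30.5% of all 33469 promoters and in 15 of the 24 promoters of measured list genes that the table holds. The letters CCAAT were in 34% of all promoters and 9 of the 24, and TATAAA in 12.9% and 3 of the 24. Col4a1 and Col4a2 were both among the 9 with CCAAT in this longer window, though the stretch printed between their starts has none. These matches are letters in a window and not measured sites.

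Col4a1 and Col4a2, which encode the chains of the collagen IV network found in nearly all basement membranes, varied together. Col4a1 had signals of 2165, 5208 and 3934 on replicates 1, 2 and 3, and Col4a2 had 2048, 4010 and 3283. For both genes the order of the arrays was the same, with replicate 1 low and replicate 2 high. Other list genes, such as Lamb2, Timp3 and Bgn, had this order too, so it is not particular to the pair. The ratio of replicate 2 to replicate 1 was 2.41 for Col4a1 and 1.96 for Col4a2. Both were detected, at 3.57 ± 0.33 (SE) and 3.33 ± 0.27 log2 units above the cutoff (limma adjusted p = 0.000791 and 0.000535). The second Col4a1 probe set read 1614, 3355 and 3263 and was also lowest on replicate 1.

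Col4a5 encodes a chain of a second collagen IV network, which is known from the glomerulus and from distal tubule segments. Its signals were 11933, 12990 and 12032, nearly level over the arrays, with an SD of 0.07 log2 units and a ratio of replicate 2 to replicate 1 of 1.09. It lay 5.37 ± 0.14 log2 units above the cutoff (limma adjusted p = 7.59e-05). Of its partner chains, Col4a4 was detected as well (954, 760 and 699, limma adjusted p = 0.00158). Col4a6, read from the other side of the Col4a5 start, had 70.6, 226 and 111 and was not called (limma adjusted p = 1). Col4a6 was named after its values were seen.

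Laminins are 3-chain proteins, and the beta and gamma chain genes of the list were all detected. Lamb1 had signals of 8052, 7776 and 9025 and an SD of 0.11 log2 units. Lamb2, the beta chain gene known from the glomerulus and from the synapse of nerve and muscle, had 6411, 8995 and 7712. Lamc1, the gamma chain of most laminins, had 2847, 4180 and 4329 and so was lowest on replicate 1. Its second probe set (681, 1160 and 637) was lowest on replicate 3 and does not share that order. Nid1, which encodes the nidogen that links laminin to collagen IV, had 12865, 12626 and 15540. The second Nid1 probe set was far dimmer (1085, 1091 and 746) and lowest on replicate 3, where the brighter one was highest. The levels of these 4 genes above the cutoff ran from 3.64 log2 units for Lamc1 to 5.52 for Nid1 (limma adjusted p from 7.59e-05 to 0.000175). Thus Lamb1 and Nid1 had no dip on replicate 1, unlike Col4a1 and Col4a2. Whether the genes differ in this was not tested.

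Col18a1 and Col15a1 encode related collagens of basement membrane zones that carry sugar chains. Col18a1 had signals of 2158, 3442 and 2746, and Col15a1 had 764, 726 and 969. Both were detected (limma adjusted p = 0.000325 and 0.00061). Col15a1 rests on its brighter probe set, because the second read 227, 215 and 226, below the cutoff on each array.

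None of the fibrillar collagens, the fibres of connective tissue, or of the filament collagens was called with all 3 arrays, though all but Col6a2 were above the cutoff on at least 1 array. Col3a1 had signals of 179, 537 and 962, Col1a1 had 84.3, 221 and 340, and Col1a2 had 189, 402 and 383. The minor fibrillar chains Col5a1 and Col5a2 had 281, 446 and 467, and 164, 652 and 498. Col6a2, a chain of the beaded filaments of collagen VI, had 27.7, 215 and 157. All 6 were below the cutoff on replicate 1. Where the other arrays measured the gene, Col3a1 was at least 3.18-fold higher on replicate 3 and Col5a2 at least 2.15-fold higher on replicate 2 than on replicate 1, both taken against the cutoff of replicate 1. Their limma adjusted p ran from 0.134 for Col5a1 to 1 for Col1a1 and Col6a2. At the 90th percentile Col1a2 and Col5a1 were called (limma adjusted p = 0.0436 and 0.00713). Without replicate 1 the same test called Col3a1, Col5a1 and Col5a2 (limma adjusted p = 0.0116, 0.0481 and 0.0304). The second probe sets of Col1a1, Col1a2, Col5a1 and Col5a2 were lowest on replicate 1 as well, with 47.1, 163 and 317 for Col1a1, while that of Col6a2 (13.0, 11.6 and 9.98) was highest there and below the cutoff on all arrays. Among the other collagens listed as a background, 1 of 20 was detected, which was Col4a4.

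Several adhesive and calcium-binding matrix protein genes were detected and varied widely between arrays. Mgp, which encodes the matrix Gla protein that restrains calcification of vessels, had signals of 1776, 9992 and 5242. The ratio of replicate 2 to replicate 1 was 5.63. Fn1, the gene of the cell-adhesive protein fibronectin, had 544, 2546 and 1097, with a ratio of 4.68. Sparc, the gene of a collagen-binding protein, had 2878, 7131 and 6320, and Bgn, the gene of the small proteoglycan biglycan, had 1147, 2315 and 1776. In each of these 4 genes the arrays stood in one order, replicate 1 low, replicate 3 between and replicate 2 high. All 4 were detected, with limma adjusted p of 0.00357 (Mgp), 0.0226 (Fn1), 0.00061 (Sparc) and 0.00143 (Bgn). The call of Fn1 was lost without replicate 3 (limma adjusted p = 0.0824) and with the stricter percentile as cutoff (limma adjusted p = 0.0946).

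The other 5 genes of that role were not detected. Fbn1 and Fbln5, which encode elastic fibre proteins, had signals of 133, 750 and 366, and of 141, 528 and 274. Both were highest on replicate 2 and below the cutoff on replicate 1. Dcn, the gene of decorin and a usual fibroblast marker, had 96.4, 429 and 580 and was not called with all arrays (limma adjusted p = 0.837) but was without replicate 1 (limma adjusted p = 0.0293). Lum, the gene of the related proteoglycan lumican, had 36.5, 4.63 and 4.31, and Postn, which encodes periostin, had 14.4, 206 and 26.4. Both stayed below the cutoff on all arrays, so the order of their arrays carries no weight.

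**Figure D2:**
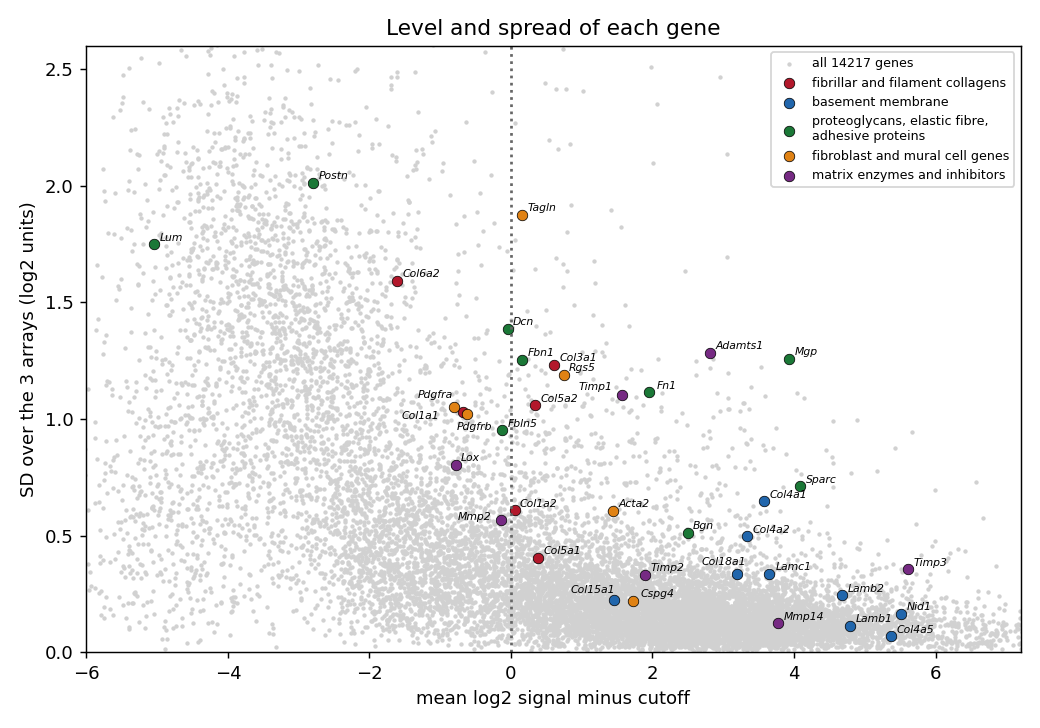
Mean log2 signal minus cutoff (horizontal axis) against the SD over the 3 arrays in log2 units (vertical axis), with grey points for all genes and coloured points for the 37 list genes; the dotted line is the cutoff, and 123 genes lie outside the plotted range. Col4a5, Lamb1, Mmp14 and Nid1 lie at high level and low spread, while Mgp, Adamts1, Fn1 and Timp1 are detected with an SD of at least 1.

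Genes of fibroblasts and mural cells were mostly not detected. Acta2, which encodes smooth muscle actin, had signals of 497, 996 and 1061, and Tagln, which encodes an actin-binding protein of the same cells, had 74.3, 632 and 778. Acta2 was 2.01-fold and 2.14-fold higher on replicates 2 and 3 than on replicate 1. Tagln was at least 2.09-fold and at least 2.57-fold higher, against the cutoff of replicate 1. Acta2 was detected (1.44 ± 0.29 (SE) log2 units above the cutoff, limma adjusted p = 0.00962), but not without replicate 3 (limma adjusted p = 0.0549) or at the stricter percentile (limma adjusted p = 0.0997). Tagln was not (limma adjusted p = 0.686, and 0.00701 without replicate 1). A further 5 probe sets that the annotation gives to Acta2 and to a second actin gene were left out by the rule.

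Serum response factor, which controls smooth muscle genes, binds a motif called the CArG box. Because Acta2 is the smooth muscle gene of the list whose promoter is in the table, the 150 bases before its start are shown (minus strand, chr1:241172504-241172653), with CArG boxes that have 1 of the central 6 letters off in capitals.
Acta2: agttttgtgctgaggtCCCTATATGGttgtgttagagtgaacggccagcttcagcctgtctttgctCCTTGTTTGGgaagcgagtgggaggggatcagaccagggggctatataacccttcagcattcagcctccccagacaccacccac
The 2 boxes of this kind begin 134 and 84 bases before the start. In the 250 bases before the start, a CArG box with at most 1 central letter off was in 8.08% of all promoters. Of the 24 list promoters 4 had one. Exact boxes, which these counts include, were in 1.5% of all and 0 of the 24.

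The pericyte genes of the list differed among themselves. Rgs5, a regulator of G protein signalling that marks pericytes, had signals of 207, 1067 and 558 and was not called (limma adjusted p = 0.215), but was without replicate 1 (limma adjusted p = 0.0275) and at the 90th percentile (limma adjusted p = 0.0294). The growth factor receptor genes Pdgfrb and Pdgfra, which mark pericytes and fibroblasts, had 86.7, 326 and 259, and 74.5, 223 and 297 (limma adjusted p = 1 for both). Cspg4, which encodes the NG2 proteoglycan of pericytes, had 1173, 902 and 899. It was detected (limma adjusted p = 0.000683) and, with Lum, was 1 of 2 list genes that were highest on replicate 1, beside 33.9% of all genes. Cspg4 was 1.30-fold higher on replicate 1 than on each other array. Rgs5 and Pdgfrb were instead lowest there, though at signals below the cutoff. Of the 3 Pdgfrb probe sets 2 were lowest on replicate 1, while a dim one (24.9, 9.40 and 20.5) was highest there.

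All 3 inhibitors of matrix breakdown in the list were detected. Timp3, whose protein stays bound to the matrix, had signals of 11274, 18454 and 14778, 5.61 ± 0.22 (SE) log2 units above the cutoff (limma adjusted p = 9.64e-05). All 4 of its probe sets were above the cutoff on each array, and 3 of them were lowest on replicate 1. Timp2 had 872, 1380 and 1122 (limma adjusted p = 0.00149). A second Timp2 probe set (192, 314 and 181) was above the cutoff on 1 array and lowest on replicate 3. Timp1, known to be induced in injured kidney, had 374, 1162 and 1601 and was 4.28-fold higher on replicate 3 than on replicate 1. Its call (limma adjusted p = 0.0324) was lost without replicate 2 or replicate 3 (limma adjusted p = 0.132 and 0.131) and at the stricter percentile (limma adjusted p = 0.197).

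Among the enzymes, Mmp14 and Adamts1 were detected and Mmp2 and Lox were not. Mmp14, the membrane-bound metalloproteinase that activates pro-MMP2, had signals of 3707, 4375 and 4192, with an SD of 0.12 log2 units. A second Mmp14 probe set had 590, 656 and 531 and was lowest on replicate 3. The gene of its known substrate, Mmp2, had 185, 265 and 406 (limma adjusted p = 1). A second Mmp2 probe set, below the cutoff on all arrays, ran in the opposite order (114, 71.5 and 48.6). Lox, the gene of lysyl oxidase, which crosslinks collagen and elastin, had 107, 319 and 152 (limma adjusted p = 1). Adamts1, a secreted protease that cuts proteoglycans, had 917, 1869 and 5383 (limma adjusted p = 0.00789). It was 5.87-fold higher on replicate 3 than on replicate 1 and 2.88-fold higher than on replicate 2. The arrays therefore stood in a different order for Adamts1 and Timp1, both highest on replicate 3, than for Mgp and Fn1, both highest on replicate 2.

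**Figure D3:**
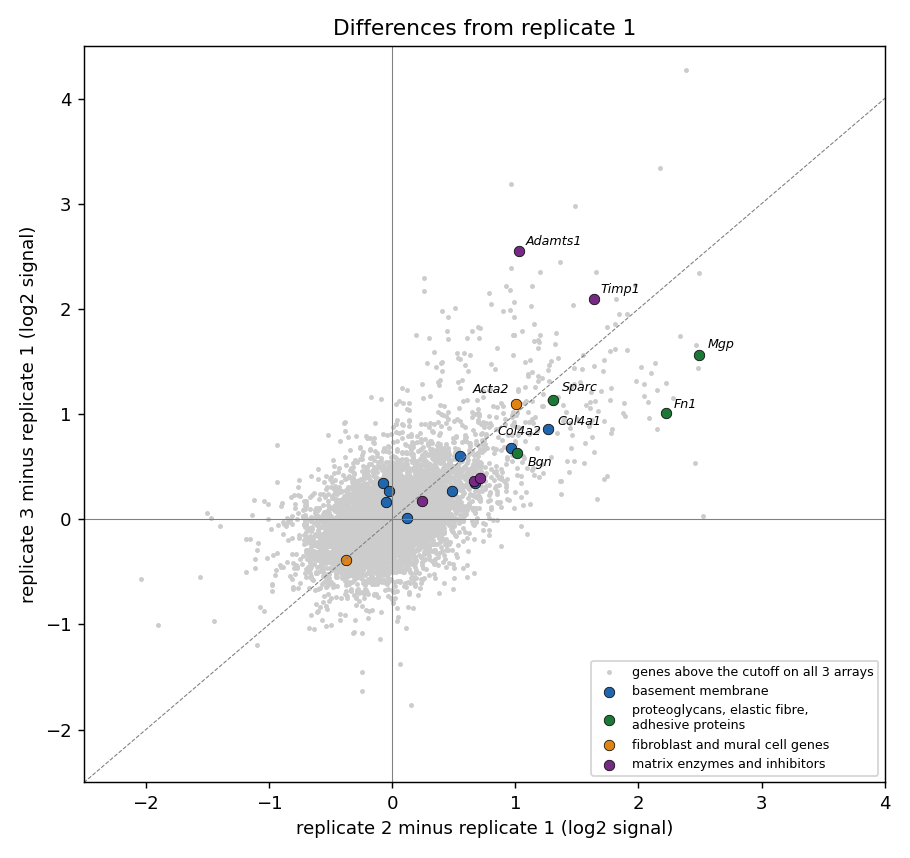
Log2 signal of replicate 2 minus replicate 1 (horizontal axis) and of replicate 3 minus replicate 1 (vertical axis) for the 20 list genes (coloured by role) and all other genes (grey) above the cutoff on all 3 arrays; the dashed line marks equal differences, and 2 genes lie outside the plotted range. Mgp and Fn1 lie far to the right, Adamts1 and Timp1 above the dashed line, several basement membrane genes near the centre and Cspg4 at the lower left; the 17 list genes not above the cutoff on every array, among them all 6 fibrillar and filament collagens, are not drawn.

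An SD under 0.25 log2 units was found for 7 of the 37 genes, beside 50.3% of all genes. They were Col4a5, Lamb1, Mmp14, Nid1, Cspg4, Col15a1 and Lamb2, of which 5 are basement membrane genes. An SD of at least 1 was found for 16 of the 37, beside 14.1% of all genes, and 4 of these 16 were detected (Mgp, Fn1, Timp1 and Adamts1). For replicate 2 minus replicate 1 the median difference was 0.49 log2 units over the basement membrane genes, 1.49 over the fibrillar and filament collagens, 2.16 over the proteoglycan, elastic fibre and adhesive protein genes, 1.75 over the fibroblast and mural cell genes and 0.71 over the enzymes and inhibitors. Over all genes it was -0.01. The signal was highest on replicate 2 for 21 of the 37 genes (32.1% of all genes) and on replicate 3 for 14 (34% of all genes). Replicate 2 was higher than replicate 1 for 32 of the 37 genes (49% of all genes). Replicate 3 was higher than replicate 1 for 35 of the 37 genes (50.8% of all genes), and higher than replicate 2 for 14 (52.4% of all genes). Between replicates 3 and 2 the role medians ran from -0.93 for the proteoglycan, elastic fibre and adhesive protein genes to 0.04 for the fibroblast and mural cell genes. Apart from the basement membrane median, these role medians rest in part on signals below the cutoff of replicate 1 and are not measured folds.

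Other genes of the matrix, from a list that holds none of the 37, were detected in 31 of 106 cases, or 29.2%, beside 57.4% of all genes. Of the other basement membrane genes 5 of 12 were detected, led in signal by Nid2 (2494, 6514 and 4775), the proteoglycan gene Agrn (4022, 5021 and 4453) and the laminin alpha chain Lama5 (1677, 2701 and 2261). Of the collagen-making enzymes and chaperones 9 of 13 were detected, with P4hb, Serpinh1 and Plod2 brightest. The medians of this role differed little between arrays, at -0.01, 0.15 and -0.15 log2 units on replicates 1, 2 and 3 when set against the average of the remaining arrays after median centring. Of the glycoproteins and proteoglycans 11 of 37 were detected (Spp1, Efemp1 and Tinagl1 brightest), and of the proteases and inhibitors 5 of 24 (Plau, Mmp15 and Plat brightest). Col9a1 and Mmp7 had the lowest signals. Of the receptors that bind matrix, 14 of 23 were detected, or 60.9%, with the syndecan gene Sdc4, the integrin beta chain Itgb1 and the dystroglycan gene Dag1 brightest and Itga11 and Itgb3 lowest.

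Markers of other cell types also differed between the arrays, and their part in the values above was not tested. Endothelial markers (11 of 18 detected, Esam and Plvap brightest, Vwf and Ehd3 lowest at 186 and 197) had summed signals of 18864, 37276 and 29994 on replicates 1, 2 and 3. Further fibroblast and mural markers outside the 37 (5 of 22 detected, Cxcl12 and Gsn brightest, Twist2 lowest at 3.85) summed to 18372, 22943 and 23002, with Cxcl12 and Gsn nearly level. The median over these 22 markers was 0.81 log2 units higher on replicate 2 than on replicate 1 (17 of 22 higher) and 0.69 higher on replicate 3 (20 of 22). Thin limb markers (8 of 8 detected, Cryab and Aqp1 brightest) summed to 36433, 87069 and 60607, and proximal tubule markers (5 of 22 detected, Kap and Hao2 brightest) to 10071, 29954 and 85358. Principal cell markers (7 of 13 detected, Tfcp2l1 and Aqp2 brightest) summed to 13980, 19207 and 28785. Podocyte markers (3 of 10 detected, Podxl and Cdkn1c brightest, Nphs1 lowest at 23.8) summed to 3661, 5259 and 5091, and leukocyte markers (3 of 19 detected, Lyz2 and Fcer1g brightest, Itgam lowest at 15.9) to 3649, 6802 and 6057. The endothelial, thin limb, podocyte and leukocyte sums were highest on replicate 2, as Mgp and Fn1 were. The proximal tubule and principal cell sums were highest on replicate 3, as Timp1 and Adamts1 were. The fibroblast and mural sum was lowest on replicate 1 and nearly level on replicates 2 and 3. Genes within a list differed, and of the 18 endothelial markers 14 were highest on replicate 2 and 4 on replicate 3. Whether list genes and markers share an order was not tested. The TAL markers, Umod and Egf brightest, summed to 271866, 264606 and 248143, so replicate 1 was not low in the segment's own markers. After median centring, which moved the arrays by up to 0.12 log2 units against each other, the list of 37 deviated by -0.95, 0.55 and 0.21 log2 units on replicates 1, 2 and 3, and the TAL markers by 0.20, -0.05 and -0.12.

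**Figure D4:**
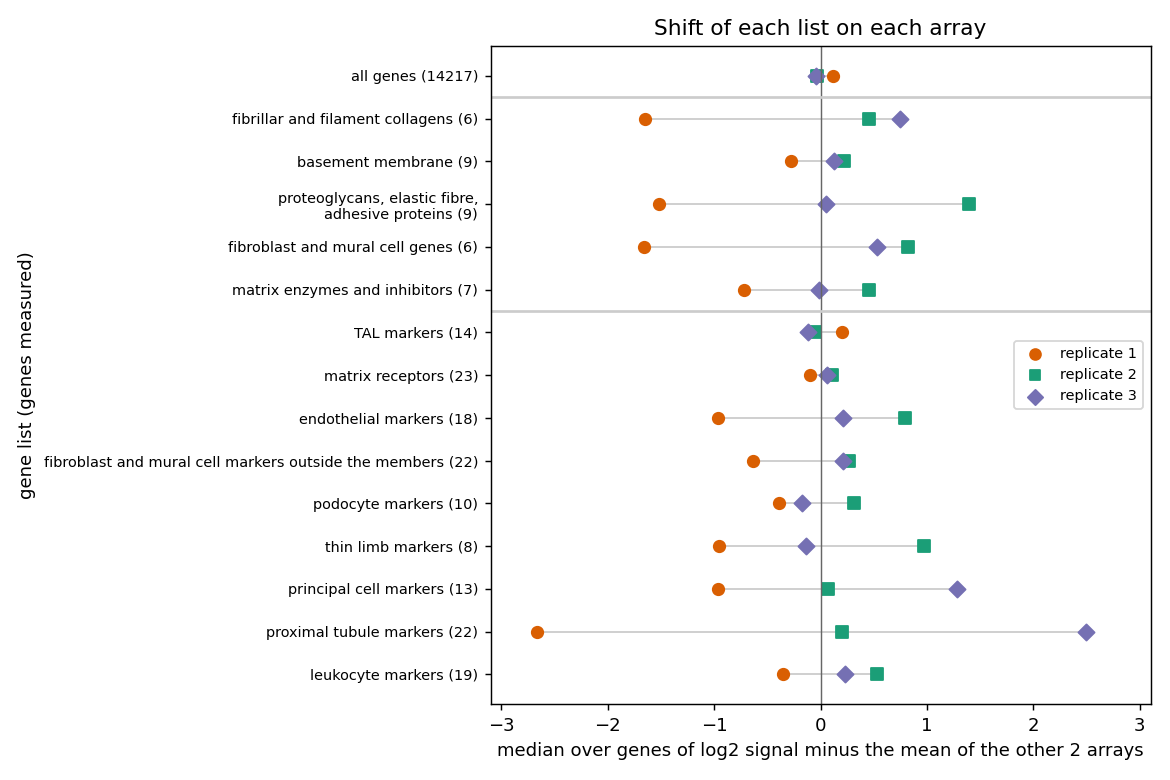
Median over the genes of each list (vertical axis, number of measured genes in brackets) of the log2 signal on one array minus the average of the remaining 2 (horizontal axis, after median centring), with 1 point per array. Replicate 1 lies lowest for each of the 5 roles, nearest to 0 for the basement membrane genes (-0.27), and for each of the other cell type lists except the TAL markers, where it lies highest (0.20).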

How the data were processed

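The table deposited by the authors gives linear intensity values, from 0.217 to 94710, for 31099 probe sets on 3 Affymetrix arrays. The summary method, software and normalization are not given in the sources used here. All values were above 0, so log2 was taken with no pseudocount and no further scaling. In the platform annotation, 20826 probe sets name 1 gene, 436 more than 1 and 9780 no gene, and 57 are controls. The brightest probe set stood for each of 14217 genes. Probe sets hybridise unequally, so signals of different genes do not give relative abundance.

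The cutoff on each array was the 95th percentile of 106 measured genes of 117 listed from other tissues, without Myh1, whose probe set an earlier analysis had put in question. Log2 signal minus cutoff was tested with limma 3.58.1 in R 4.3.3 (lmFit, eBayes, one-sided), with adjusted p under 0.05 over all genes. A fold was given only where both arrays were above their cutoffs, and otherwise a bound against the cutoff. All list genes were named. Of the other matrix and receptor lists the 3 brightest detected genes of a role and the 2 lowest were named, and of each cell type list the 2 brightest. The members and lists were chosen with earlier results of these data known. Promoter sequences came from the RefSeq table of GRCr8, which held 24 of the 37 genes. The number of arrays limits the precision.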

Additional observations from a re-analysis of the deposited data

How the results depend on the processing

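The count of 20 detected genes was 23 at the 90th percentile, 17 at the stricter percentile and 35 at the TrpnX control, where 74 of the other matrix genes were called in place of 31. The median level of the list, 1.45 log2 units above the cutoff, was 2.17, 0.69 and 4.01 under these 3 cutoffs. With Myh1 among the other-tissue genes 20 were detected. Leaving out 1 array gave 17 to 26 detected genes, with 54.8% to 56.4% of all genes detected. Quantile normalization, a pseudocount of 16, the mean over probe sets, a filter at a mean signal of 100 and eBayes with a trend each gave 20. Plain probe sets alone, which drop Mgp, gave 19. Scaling to a common 75th percentile cannot change this count, because the cutoff of an array scales with its signals. The calls of Acta2, Fn1 and Timp1 were the ones lost under a higher cutoff or without an array. Alternatives chosen after seeing the data were the scalings, probe set choices and filter. The count lowest on replicate 1 ran from 30 of 36 (plain probe sets) to 34 of 37 (quantile normalization). The count at least 2-fold lower there ran from 13 of 37 (quantile normalization) to 17 of 35 (filter). The shares over all genes under these alternatives are not given here. No paired analysis was possible because the series holds 1 group. Signals below the cutoff, which include 17 of the 37 genes on replicate 1, limit what can be said of sizes.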
